A study of Mus musculus with 8 samples.

Results

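The 8 libraries of the series were divided by how much of each library came from the mitochondrial genome. The counts of the 13 protein-coding mRNAs of mitochondrial DNA were summed in each library and set against all counts of that library. The 4 libraries above 10% form the high share class (male WT 1, male WT 2, male KO 2 and female KO 1), and the 4 below 10% form the low share class (female WT 1, female WT 2, male KO 1 and female KO 2). The classes were therefore chosen by measured values, and the mitochondrial mRNAs are described below with no test. The comparison of the classes was made across nuclear genes, with every mitochondrial-genome gene left out of the library totals.

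Each library was made from the whole spine of mouse fetuses at E18.5, shortly before birth, from frozen tissue with TRIzol extraction and the Illumina TruSeq Stranded mRNA kit. WT animals carry the intact Pax1 enhancer region, and KO animals (Pax1-Enh KO) carry a deletion of it. There were 2 libraries for each sex and genotype. Cartilage genes such as Col2a1 and Acan, which mark the developing spine, summed to 13865 to 23958 CPM in the high share libraries and 10732 to 43881 CPM in the low share libraries. The labels do not say whether 2 libraries of one group came from separate animals or litters, so every p-value below measures only the spread between these libraries, which may be technical.

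Mitochondrial DNA encodes a few core subunits of the respiratory chain and 2 ribosomal RNAs, and all other mitochondrial proteins are encoded in the nucleus. Mitochondrial mRNAs carry short poly(A) tails, so they enter libraries made from polyadenylated RNA. Their share of a library is high in energy-demanding tissue such as muscle and brown fat, and it is also widely used as a measure of sample quality.

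The mitochondrial mRNA share was 17.5% in male WT 1, 19.6% in male WT 2, 15.01% in male KO 2 and 13.2% in female KO 1. It was 5.29% in female WT 1, 7.01% in female WT 2, 4.34% in male KO 1 and 4.51% in female KO 2. The class means were 16.3% ± 2.80 and 5.29% ± 1.22 (SD, n = 4 each). The members nearest to the 10% line were female WT 2 below it and female KO 1 above it. Genotype is balanced over the classes, with 2 WT and 2 KO libraries in each. Sex is not: the high share class holds 3 male libraries and 1 female library, and the low share class 1 male and 3 female. Among the WT libraries both males are high and both females are low, so share class and sex cannot be told apart there. Among the KO libraries each sex has 1 high and 1 low library.

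**Figure D1:**
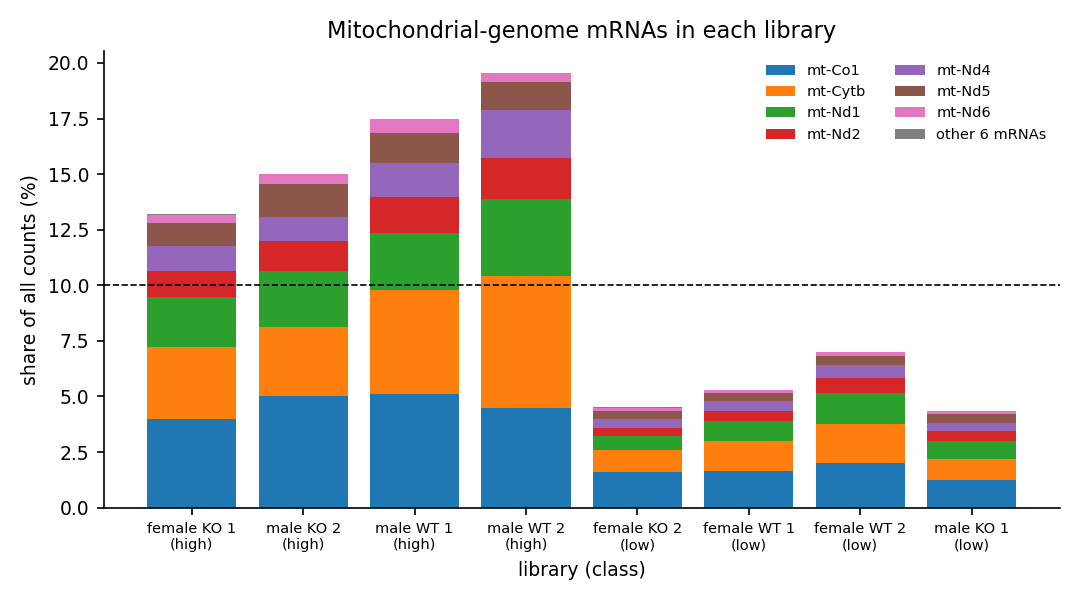
Share of all counts taken by mitochondrial-genome mRNAs in each library, in percent, stacked by gene, with the 10% line dashed. The high share libraries (left) reach 13.2% to 19.6% and the low share libraries (right) 4.34% to 7.01%, and mt-Co1, mt-Cytb and mt-Nd1 form the largest parts of every bar.

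Within the mitochondrial genome, 7 of the 13 mRNAs carried nearly all of these counts. They encode subunits of complex I (mt-Nd1, mt-Nd2, mt-Nd4, mt-Nd5, mt-Nd6), the catalytic subunit of complex IV (mt-Co1) and cytochrome b of complex III (mt-Cytb), and together they held 99.7% to 99.9% of the mitochondrial mRNA counts of each library. In CPM (counts scaled to a library total of 1000000) of all counts, mt-Co1 had 50955, 44674, 50295 and 39835 in the high share libraries and 16491, 20237, 12310 and 16142 in the low share libraries, in the order in which the libraries are listed above. The mt-Nd6 mRNA, the only one of the 13 transcribed from the other strand, had 6116, 4074, 4396 and 3909 CPM in the high class and 1381, 1542, 1199 and 1385 in the low class. The ratio of the class means lay between 2.85 and 3.40 for all 7 of these mRNAs. The 2 mitochondrial ribosomal RNAs, which took no part in the choice, held 0.449% to 1.32% of counts in the high share libraries and 0.155% to 0.255% in the low share libraries, without overlap.

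The other 6 mRNAs lie side by side on the mitochondrial genome between positions 7013 and 10173 (mm10) and held 0.0527% to 0.326% of the mitochondrial mRNA counts. Their counts did not follow the classes alike. The complex IV subunit mt-Co3 had 3054, 3526, 896 and 559 counts in the high share libraries and 2394, 3339, 377 and 241 counts in the low share libraries. Its 4 WT libraries were all above its 4 KO libraries. The ATP synthase subunit mt-Atp6 had 4033 counts in male WT 2 and 1369 in female WT 2, against 106 to 287 in the other 6 libraries. How the authors counted reads that fit several places is not given in the sources used here. The counts of these 6 genes may therefore not measure the levels of their mRNAs. What sets these 6 genes apart from their neighbours was not tested.

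The table holds 27164 nuclear genes, and 17364 of them had enough counts to be tested. Levels of nuclear genes are given below as CPM of the nuclear counts, in the order male WT 1, male WT 2, male KO 2 and female KO 1 for the high share class and female WT 1, female WT 2, male KO 1 and female KO 2 for the low share class. In the high share libraries 2184 of them were called higher (12.6% of those tested) and 1162 were called lower (6.69%), by edgeR's quasi-likelihood test with Benjamini-Hochberg adjustment over all nuclear genes and a threshold of 0.05. Without any test, 15.1% of the tested genes had all 4 high share values above all 4 low share values, and 10.9% the reverse. The rises were the larger changes: 1117 genes rose by over 2-fold and 49 fell by over 2-fold, and the median log2 difference was 1.01 among the called rises and -0.64 among the called falls. The median over all tested genes was -0.03. With sex and genotype as terms in the fit, 1391 genes were called higher (8.01%) and 395 lower (2.27%), and 1310 and 323 of these were calls of the first fit in the same direction. Within the KO libraries alone, where each sex is in both classes, 929 genes were called higher (5.24%) and 106 lower (0.597%), and 825 and 26 of these were shared with the first fit. In fits that leave out 1 library at a time, 1187 of the rises and 201 of the falls kept their call every time. The count of falls went down to 249 without female WT 1, to 389 without male WT 1, to 399 without male KO 1, to 435 without male WT 2, to 738 without male KO 2 and to 739 without female WT 2, and the count of rises to 1315 without female WT 1.

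Of the properties compared, which were the GC content and length of the transcript, its coding sequence and its 3′ untranslated region, GC content had the strongest correlation with these differences. Each gene was given the GC content and length of 1 annotated transcript (GENCODE M21, mm10), which was possible for 15937 of the 17364 tested genes. The genes called higher had a median GC content of 42.4%, those called lower 55.9% and those not called 51.0%. In the decile of genes with the lowest GC content (below 42.0%), 876 of 1594 genes were called higher and 2 lower, and the median log2 difference was 0.79. In the decile with the highest GC content (above 58.4%), 2 of 1594 genes were called higher and 272 lower, and the median was -0.39. The median went down from each decile to the next. Across genes, which are not independent replicates, the Spearman correlation between the log2 difference and GC content was -0.63. It was -0.57 for the coding sequence alone and -0.61 for the 3′ untranslated region alone. The mitochondrial mRNAs themselves have GC contents of 31.9% to 41.1%, all below the upper bound of the lowest decile of nuclear transcripts. Those mRNAs set the classes, so their own difference follows from the rule and adds nothing to this trend.

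**Figure D2:**
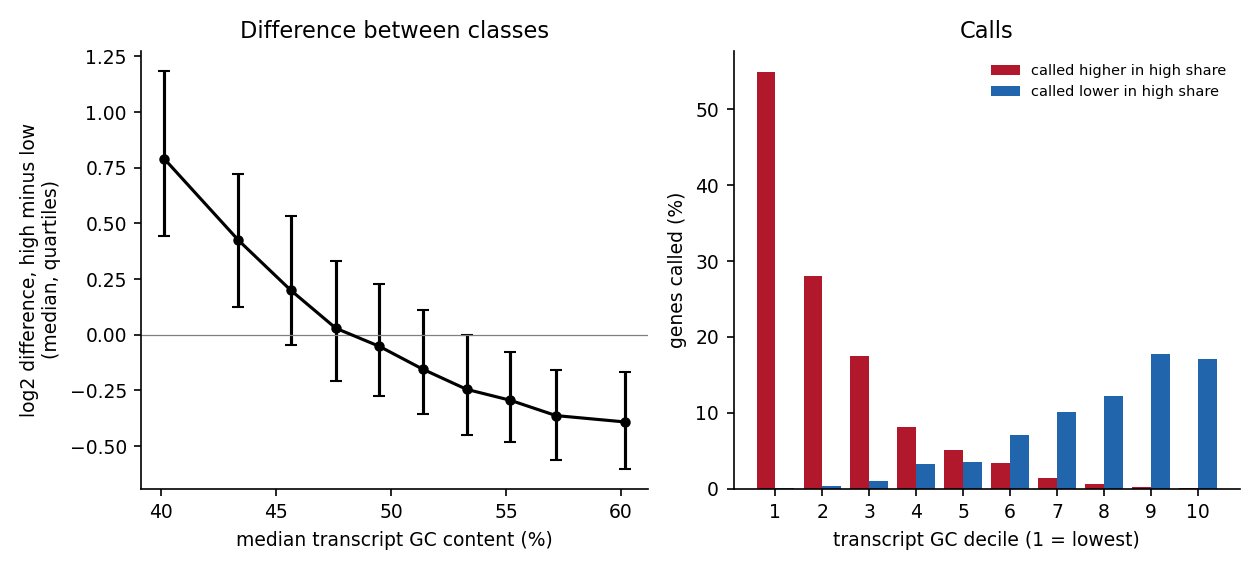
Left, log2 difference between high and low share libraries in deciles of nuclear genes ordered by transcript GC content (median with quartiles). Right, percent of genes in each decile called higher or lower; calls of higher fall from 55.0% in the lowest decile to 0.125% in the highest.

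The letters of single genes can illustrate lower and higher GC content. The genes below were picked by their values, so they add no support to the trend, and Cox8a was not called. The sequences below are coding sequences, 5′ to 3′, from GENCODE M21 transcripts, with every G and C in capitals. The first pair are nuclear subunits of complex IV, chosen as the subunits with the most positive and the most negative difference among those with a coding sequence of at most 300 bases. The Cox7b gene lies on chromosome X (106015700 to 106022450, mm10), and its coding sequence has 47.3% G and C. The Cox8a gene lies on chromosome 19 (7215158 to 7217616), and its coding sequence has 64.8% G and C.
Cox7b: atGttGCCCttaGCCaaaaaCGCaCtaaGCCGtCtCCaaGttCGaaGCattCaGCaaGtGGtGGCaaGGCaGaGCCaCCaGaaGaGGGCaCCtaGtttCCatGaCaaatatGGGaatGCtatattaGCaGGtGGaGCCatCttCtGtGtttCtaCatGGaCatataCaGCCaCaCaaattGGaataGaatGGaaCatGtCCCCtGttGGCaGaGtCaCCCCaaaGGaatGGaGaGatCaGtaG
Cox8a: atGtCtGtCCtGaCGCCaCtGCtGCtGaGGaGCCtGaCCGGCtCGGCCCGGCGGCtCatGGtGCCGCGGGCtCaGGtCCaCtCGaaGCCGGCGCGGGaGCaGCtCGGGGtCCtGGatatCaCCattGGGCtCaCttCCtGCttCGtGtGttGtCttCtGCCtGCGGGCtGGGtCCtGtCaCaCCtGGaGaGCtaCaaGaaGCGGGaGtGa
The second pair are the first 240 coding bases of osteomodulin (Omd, chromosome 13, 49582462 to 49592612), which has the lowest coding GC content of the 15 genes with the largest rise, and of Rasip1 (chromosome 7, 45627537 to 45639092), which has the highest of the 15 with the largest fall. These stretches have 34.6% and 68.8% G and C.
Omd: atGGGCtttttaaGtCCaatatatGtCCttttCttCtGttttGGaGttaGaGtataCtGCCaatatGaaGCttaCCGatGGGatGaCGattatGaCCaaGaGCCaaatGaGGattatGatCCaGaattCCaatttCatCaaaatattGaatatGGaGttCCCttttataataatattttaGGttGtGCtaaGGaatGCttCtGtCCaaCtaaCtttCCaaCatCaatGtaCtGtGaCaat
Rasip1: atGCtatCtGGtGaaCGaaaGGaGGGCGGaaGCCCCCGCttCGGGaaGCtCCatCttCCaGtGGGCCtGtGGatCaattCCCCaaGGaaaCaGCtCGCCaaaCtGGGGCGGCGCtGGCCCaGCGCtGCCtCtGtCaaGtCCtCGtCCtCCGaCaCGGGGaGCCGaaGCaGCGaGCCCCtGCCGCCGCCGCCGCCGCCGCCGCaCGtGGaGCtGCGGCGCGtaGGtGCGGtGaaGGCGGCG

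Cox7b had 1781, 1685, 1006 and 796 CPM in the high share libraries and 422, 777, 297 and 261 CPM in the low share libraries, log2 difference 1.58 (SE 0.39), adjusted p = 0.0207. All 4 high share values were above the low share values, though female KO 1 exceeded female WT 2 by little. The call was lost in 4 of the 8 fits that leave out 1 library, those without male WT 1, male WT 2, female WT 1 or male KO 1, with adjusted p between 0.0561 and 0.0612. Cox8a had 386, 258, 183 and 301 CPM in the high share libraries and 388, 699.8, 186 and 239 CPM in the low share libraries. Its classes overlapped and it was not called, with a log2 difference of -0.42 (SE 0.39, adjusted p = 0.463).

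Measured against the mean of the 8 libraries, each library showed a correlation with GC content, though it was small in female KO 2. For each library the deviation of every gene from its mean over the 8 libraries was correlated with GC content. The deviations of a gene balance out over the 8 libraries. The correlations therefore depend on one another and partly restate the class difference. The Spearman correlation across 15937 genes was -0.25 in male WT 1, -0.48 in male WT 2, -0.65 in male KO 2 and -0.26 in female KO 1. It was 0.60 in female WT 1, 0.50 in female WT 2, 0.42 in male KO 1 and 0.11 in female KO 2. Every high share library was negative and every low share library positive, and the class means differed by -0.82 (exact permutation test over 70 assignments of 4 and 4 libraries, two-sided, p = 0.0286, the smallest this design allows; adjusted p = 0.143 over the 5 library measures). This measure was added after the data had been looked at. The order of the libraries by GC trend was not their order by mitochondrial share: male KO 2, whose share was below that of both WT males, had the strongest negative trend, and female KO 2, with the second lowest share, had the weakest positive one.

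**Figure D3:**
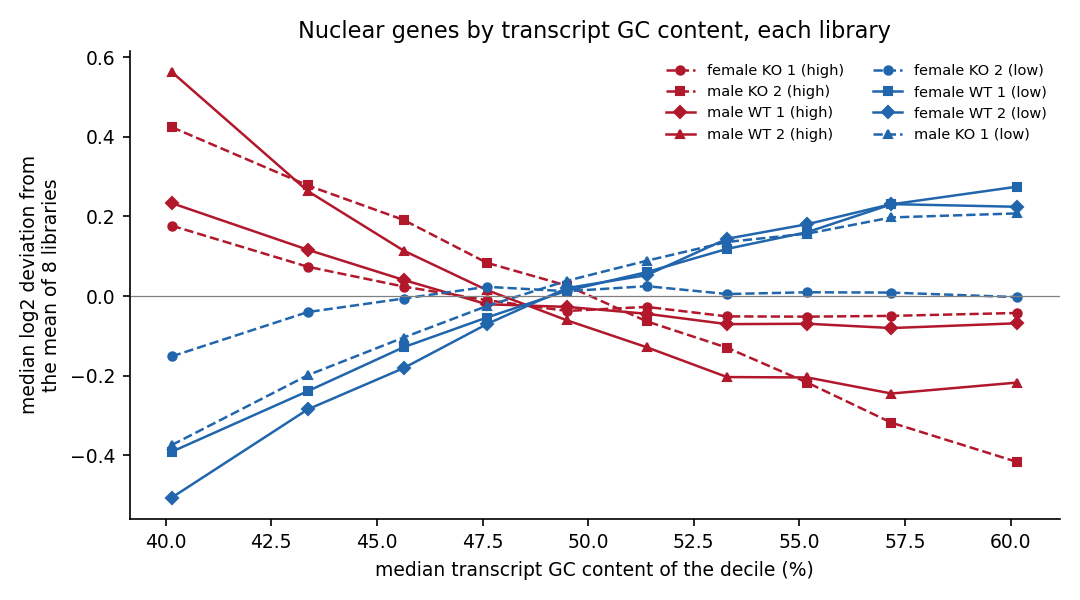
Median log2 deviation of each library from the mean of the 8 libraries, in deciles of nuclear genes ordered by transcript GC content (red, high share; blue, low share; solid, WT; dashed, KO). The 4 high share lines end lower on the right than they start on the left, and the 4 low share lines end higher. Female KO 2 rises only over the lowest deciles, from -0.15 in decile 1 to 0.02 in decile 4, and ends at -0.002. Male WT 1 and female KO 1 are close to flat over the highest deciles.

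Transcript length added a smaller ordering of its own. The Spearman correlation of the log2 difference across genes was -0.17 with transcript length, -0.25 with the length of the coding sequence and 0.00 with that of the 3′ untranslated region. In the fifth of genes with the shortest transcripts 562 were called higher and 36 lower, and in the fifth with the longest 247 were called higher and 404 lower. Within genes of similar GC content, length still ordered the calls. In the quartile of lowest GC content, 61.3% of the shortest genes were called higher and 21.0% of the longest. In the quartile of highest GC content 4.35% of the shortest genes were called lower and 37.6% of the longest. Per library, the length trend overlapped between the classes, from -0.35 to 0.06 in the high class and from -0.19 to 0.48 in the low class (exact permutation p = 0.171, adjusted p = 0.429).

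When the trends with GC content and length were fitted in each library and removed, 138 of 15937 genes were called higher (0.866%) and 45 lower (0.282%). Among the genes called at first, 127 rises and 9 falls kept their call. The rises that remained included 9 of 80 cytosolic ribosomal proteins, 4 of 6 nuclear long non-coding RNAs, the splicing kinases Clk1 and Clk4, the mitochondrial proteins Ndufa5, Atp5j and Mrpl42, and the matrix gene Lum, most of them described below. The part of base composition and length in the other differences was not tested further.

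The 15 genes with the largest rise, picked by a stated rule among autosomal genes whose classes do not overlap, rose 4.39-fold to 5.53-fold. All 15 kept their call without any one library, with sex and genotype as terms and within the KO libraries alone. Several are known from particular tissues, although most other members of the marker lists of those tissues, given below, were not called. Osteomodulin (Omd), a leucine-rich repeat proteoglycan of mineralising matrix, had 748, 1151, 653 and 545 CPM in the high share libraries and 123, 119.7, 269.6 and 133 CPM in the low share libraries, log2 difference 2.26 (SE 0.33), adjusted p = 0.00236. The highest low share value, that of male KO 1, stood apart from the other 3 and still below every high share value. Triadin (Trdn), which anchors the calcium release complex of muscle, had 687, 595, 545 and 452 CPM in the high share libraries and 105, 105, 148 and 158 CPM in the low share libraries, log2 difference 2.14 (SE 0.21), adjusted p = 0.00106. Mettl21e, a muscle methyltransferase, had 252, 195, 253 and 184 CPM in the high share libraries and 43.6, 54.8, 45.5 and 56.6 CPM in the low share libraries, log2 difference 2.14 (SE 0.17), adjusted p = 0.00106. Both muscle genes varied little within a class and were separated by a wide gap. Fabp7, the fatty acid binding protein of radial glia, had 1389.7, 2758, 682 and 872 CPM in the high share libraries and 395, 259, 268 and 341 CPM in the low share libraries, log2 difference 2.17 (SE 0.41), adjusted p = 0.0074. Here the WT males stood well above both high share KO libraries. Neurotensin (Nts), a neuropeptide, had 23.6, 37.0, 19.2 and 12.8 CPM in the high share libraries and 5.59, 3.30, 6.43 and 5.70 CPM in the low share libraries, log2 difference 2.13 (SE 0.32), adjusted p = 0.00274.

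A second set of the largest risers are RNAs of the translation machinery and non-coding host transcripts. Rps24, a protein of the small cytosolic ribosomal subunit, had 6585, 5274, 3262 and 4714 CPM in the high share libraries and 1516, 1130.1, 866 and 902 CPM in the low share libraries, log2 difference 2.17 (SE 0.29), adjusted p = 0.00159. Mir17hg, the host transcript of the miR-17 cluster, had 9.91, 12.6, 16.4 and 8.75 CPM in the high share libraries and 3.62, 1.45, 2.55 and 2.48 CPM in the low share libraries, log2 difference 2.23 (SE 0.30), adjusted p = 0.00161. Snhg14, a long imprinted transcript that carries small nucleolar RNAs, had 41.4, 121, 36.4 and 40.2 CPM in the high share libraries and 12.3, 9.30, 11.6 and 15.2 CPM in the low share libraries, log2 difference 2.30 (SE 0.39), adjusted p = 0.00443. In all 3 the classes were apart, and for Snhg14 male WT 2 stood far above the other high share libraries. The rest of the 15 were low in level: Mir99ahg (3.05 to 22.7 CPM), Rps15a-ps5 (1.43 to 10.5), Nat3 (0.524 to 8.15), Tma7 (0.493 to 7.78), Acbd7 (0.601 to 7.50), Efcab10 (0.413 to 5.33) and Snord47 (0.246 to 3.16). Rps15a-ps5 is a processed copy of Rps15a and Snord47 lies within Gas5, so their reads cannot be told apart from those of Rps15a and Gas5 with certainty. Snhg14 runs antisense to other genes, and the strand setting of the authors' counting is not given in the sources used here, so its level is uncertain as well.

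The 15 genes with the largest fall were 2.12-fold to 2.89-fold lower in the high share libraries, a narrower range than the rises. Vascular, matrix and signalling genes are among them. Notch3, the Notch receptor of vascular smooth muscle and pericytes, had 37.7, 24.4, 38.4 and 49.5 CPM in the high share libraries and 84.7, 84.1, 88.3 and 63.3 CPM in the low share libraries, log2 difference -1.09 (SE 0.21), adjusted p = 0.00788. Rasip1, which vessels need to form a lumen, had 12.6, 8.61, 10.6 and 10.4 CPM in the high share libraries and 22.3, 35.3, 25.3 and 14.1 CPM in the low share libraries, log2 difference -1.20 (SE 0.25), adjusted p = 0.0118. Its lowest low share value, that of female KO 2, was close to male WT 1. Adamts4, an aggrecan-cleaving protease, had 4.70, 3.67, 5.59 and 7.03 CPM in the high share libraries and 12.6, 12.1, 13.7 and 8.69 CPM in the low share libraries, log2 difference -1.16 (SE 0.23), adjusted p = 0.0091. Ube2s, the ubiquitin-conjugating enzyme that works with the anaphase-promoting complex, had 5.32, 8.97, 7.52 and 8.002 CPM in the high share libraries and 20.7, 20.7, 15.1 and 10.7 CPM in the low share libraries, log2 difference -1.17 (SE 0.24), adjusted p = 0.0113. Pcdh1, a protocadherin, had 18.1, 11.9, 18.2 and 16.6 CPM in the high share libraries and 27.1, 32.6, 51.3 and 26.6 CPM in the low share libraries, log2 difference -1.08 (SE 0.24), adjusted p = 0.0132. These 5 genes, with the matrix protein Papln and the somatostatin receptor Sstr4, kept their call without any one library.

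The other 8 falls depended on single libraries. Ltbp4 was not called without male KO 1 (adjusted p = 0.0553), Kcnk9 without male WT 1 or male KO 1, Prdm11 without male WT 1 or female WT 1, Mfsd12 without male WT 2 or female WT 1, Piezo1 without male WT 1, female WT 1 or male KO 1, and Pcdha11 without any of 4 libraries (male WT 1, female KO 1, female WT 1 or male KO 1). Nos2 and Cbl kept their call only without female KO 2 and only without male KO 2, respectively. With sex and genotype as terms 12 of the 15 falls were called (not Papln, Nos2 and Cbl), and within the KO libraries 1, Kcnk9. With GC and length trends removed, 3 of the 11 risers with transcript data were called (Rps24, Trdn and Mettl21e) and none of the 15 falls, whose adjusted p in that fit lay between 0.0666 and 0.509. Some of these differences kept most of their size: Pcdha11 went from -1.25 to -1.19, Cbl from -1.12 to -1.01, Ube2s from -1.17 to -0.99 and Kcnk9 from -1.48 to -1.17. Others came closer to 0, such as Notch3 at -0.35 and Piezo1 at -0.33.

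**Figure D4:**
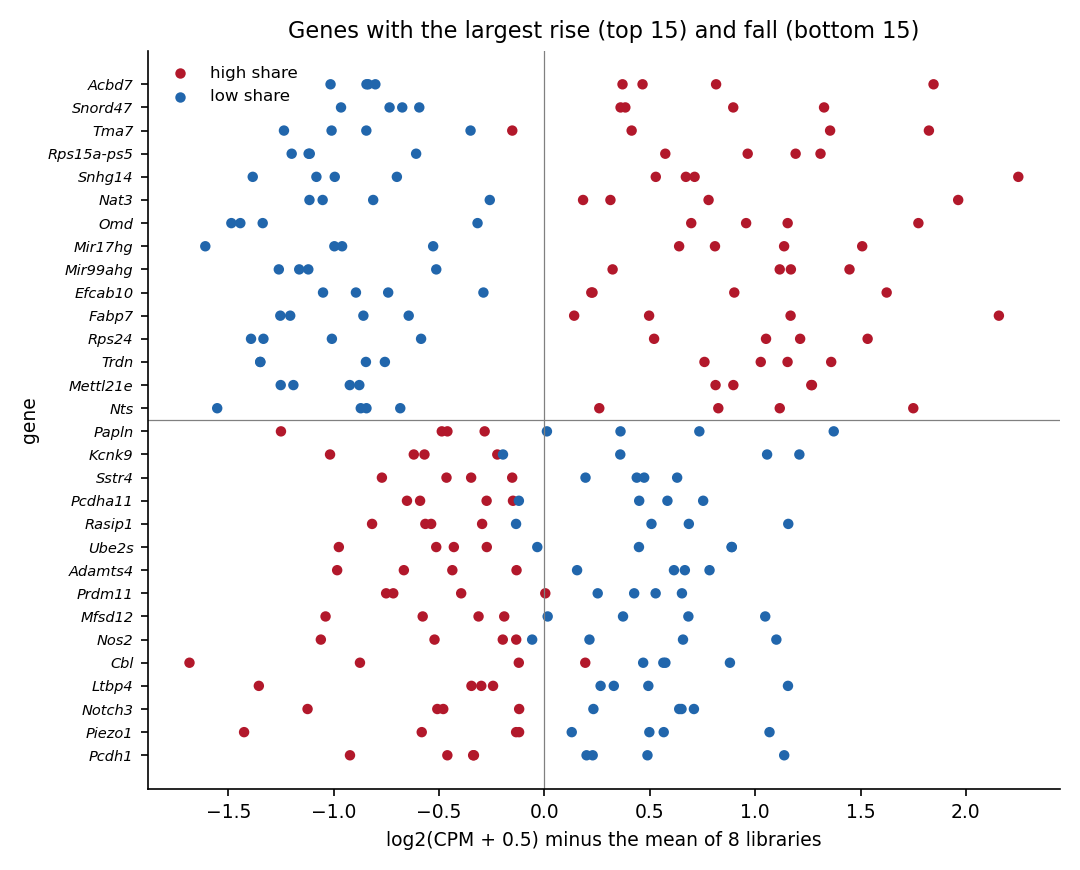
Level of the 30 genes with the largest rise and fall in each library, as log2(CPM + 0.5) minus the mean of the 8 libraries (red, high share; blue, low share). The 15 upper genes have every red point to the right of every blue point, and the 15 lower genes the reverse.

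A minority of the nuclear-encoded subunits of the respiratory chain rose where the mitochondrial mRNAs were high. Of 73 tested subunits of complexes I to V, 37 had a positive difference, 12 were called higher and none lower, and the median log2 difference was 0.03. The share called higher was 16.4%, beside 12.6% of all genes and a median of -0.03 over all genes. With sex and genotype as terms 13 of 73 were called higher (17.8%, beside 8.01% of all genes). Within the KO libraries alone 23 of 73 were called higher (31.5%, beside 5.24%), and the median was 0.50. With GC and length trends removed 2 of 73 were called higher (2.74%, beside 0.866% of all genes), and the median was -0.16. The summed level of the subunits was 21607 to 33111 CPM in the high share libraries and 14543 to 36400 CPM in the low share libraries, with overlap. The 12 called were Ndufa5, Ndufs4, Ndufv2 and Ndufb4 of complex I, Uqcrb and Uqcrh of complex III, Cox7b, Ndufa4 and Cox6c of complex IV, and Atp5j, Atp5l and Atp5j2 of complex V. Ndufa5 had 606, 381, 292 and 299.6 CPM in the high share libraries and 112, 179, 92.6 and 102 CPM in the low share libraries, log2 difference 1.70 (SE 0.29), adjusted p = 0.00474. Atp5j, a coupling subunit of ATP synthase, had 536, 435, 489 and 362 CPM in the high share libraries and 178, 226, 179 and 204 CPM in the low share libraries, log2 difference 1.21 (SE 0.18), adjusted p = 0.00223. Both kept their call without any one library, as did Ndufs4 and Ndufa4 and none of the other 8. Each of those 8 lost its call without male WT 1 and again without male KO 1, and with sex and genotype as terms all 12 were called. Complex II, which has no mitochondrially encoded subunit, had 3 tested genes with differences from -0.48 to -0.10 and no call. In the 11 complex IV genes the Spearman correlation between the log2 difference and GC content was -0.91, given as a description over 11 genes. The levels of female WT 2 were high among the uncalled subunits: Cox4i1 had 1281 CPM there and 329 to 626 CPM in the other 7 libraries.

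Other nuclear genes of mitochondria held calls as well, to be read beside the 12.6% of all genes called higher and 6.69% called lower. Among 77 mitochondrial ribosomal proteins 10 were called higher (12.99%, close to the share of all genes) and none lower, with a median of 0.06. Mrpl42, one of them, had 501, 495, 284 and 334 CPM in the high share libraries and 129, 170.3, 82.4 and 103 CPM in the low share libraries, log2 difference 1.74 (SE 0.27), adjusted p = 0.00308. Among 15 genes that maintain or transcribe mitochondrial DNA, 6 were called higher and 2 lower. The risers included the transcription termination family members Mterf1a, 1.76 (SE 0.25, adjusted p = 0.00215), and Mterf2, 1.61 (SE 0.25, adjusted p = 0.00315), and the single-stranded DNA binding protein Ssbp1, 1.17 (SE 0.22, adjusted p = 0.00685). Among 17 genes for mitochondrial RNA processing and stability 4 were called higher and 1 lower. Fastkd2, an RNA binding protein of mitochondrial granules, rose by 1.15 (SE 0.18, adjusted p = 0.00339) on the log2 scale, and Pnpt1, the mitochondrial polynucleotide phosphorylase, by 0.97 (SE 0.19, adjusted p = 0.00847). Among 10 mitophagy genes 3 were called higher, and the receptor Fundc1 had 81.6, 103, 101 and 77.4 CPM in the high share libraries and 36.2, 32.0, 33.2 and 40.0 CPM in the low share libraries, log2 difference 1.36 (SE 0.15), adjusted p = 0.00118.

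Enzymes that feed the respiratory chain had mostly negative differences, none of which passed the test. None of the 16 citric acid cycle genes was called, and 12 had a negative difference (median -0.32). None of the 16 fatty acid oxidation genes was called, and all 16 had a negative difference (median -0.63). Acads, the short-chain acyl-CoA dehydrogenase, had 142, 35.4, 42.4 and 40.6 CPM in the high share libraries and 109.6, 357, 66.8 and 48.5 CPM in the low share libraries. Female WT 2 was the highest for it, and the high and low classes overlapped. Without female WT 2 the medians of the 2 lists turned positive, 0.23 for the citric acid cycle and 0.40 for fatty acid oxidation. With sex and genotype as terms Cpt1a, the gatekeeper of fatty acid entry, was the 1 fatty acid oxidation gene called, at -0.69 (adjusted p = 0.0276). Of 11 regulators of mitochondrial biogenesis, Yy1 was called higher at 0.67 (SE 0.15, adjusted p = 0.0157). Ppargc1a and Pprc1 were called higher and lower, and kept their calls in 1 and 2 of the 8 fits that leave out 1 library. Of 17 genes of the mitochondrial stress response 1 was called, Sesn2, which was lower and kept its call in 1 of those 8 fits.

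Many cytosolic ribosomal protein mRNAs were higher in the high share libraries. Of 81 tested, 65 had a positive difference, 28 were called higher (34.6%, beside 12.6% of all genes) and none lower, and the median log2 difference was 0.40. Of the 28, 24 kept their call without any one library. Their summed level was 77659.8 to 90092 CPM in the high share libraries and 34888 to 62447 CPM in the low share libraries, without overlap. Rpl30, of the large subunit, had 2399, 1500.3, 1445 and 1686 CPM in the high share libraries and 601, 456, 412 and 434 CPM in the low share libraries, log2 difference 1.89 (SE 0.23), adjusted p = 0.00139. Rps27, of the small subunit, had 2599, 1612, 2145 and 2000.2 CPM in the high share libraries and 734, 547, 575 and 528 CPM in the low share libraries, log2 difference 1.81 (SE 0.21), adjusted p = 0.00132. With GC and length trends removed both were still called (adjusted p = 0.0217 and 0.0258). Ribosomal protein genes have many processed copies in the mouse genome, and how the authors counted reads that fit several places is not given in the sources used here, so single members are uncertain. Of 16 other genes with the same class of translation-linked mRNA, 4 were called higher, and Eif3e, a subunit of initiation factor 3, had 706, 865, 836 and 600.2 CPM in the high share libraries and 319.7, 235, 209.5 and 223 CPM in the low share libraries, log2 difference 1.61 (SE 0.20), adjusted p = 0.00143.

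**Figure D5:**
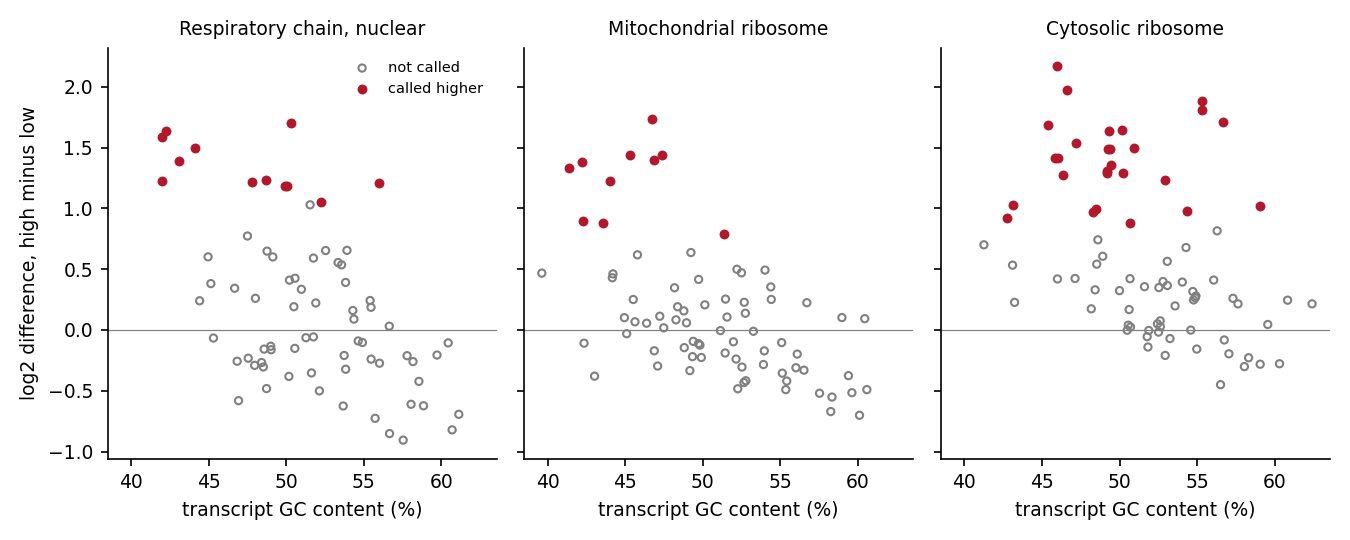
Log2 difference between high and low share libraries against transcript GC content for nuclear subunits of the respiratory chain (12 of 73 called higher), mitochondrial ribosomal proteins (10 of 77) and cytosolic ribosomal proteins (28 of 81, 1 of them with no transcript data and not drawn). Filled points were called higher. The median GC content of called and uncalled members was 48.3% and 51.9% in the respiratory chain and 44.6% and 51.6% in the mitochondrial ribosome. In the cytosolic ribosome it was 49.2% and 52.9%, with called members up to 59.1% (Rpl38).

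Many non-coding RNAs that stay in the nucleus or host small nucleolar RNAs were higher in the high share libraries. Of 13 tested host genes of small nucleolar RNAs all 13 had a positive difference, 9 were called higher (69.2%, beside 12.6% of all genes), and the median was 0.79. Gas5, one of the best known of them, had 582, 759, 427 and 499.5 CPM in the high share libraries and 206, 159, 145 and 149 CPM in the low share libraries, log2 difference 1.78 (SE 0.22), adjusted p = 0.00139. Of 10 nuclear long non-coding RNAs 5 were called higher (50%) and none lower, with a median of 0.80. Kcnq1ot1, the antisense RNA of an imprinted domain, had 66.0, 61.1, 34.8 and 54.6 CPM in the high share libraries and 16.3, 10.4, 11.5 and 13.2 CPM in the low share libraries, log2 difference 2.08 (SE 0.22), adjusted p = 0.00118. Its level is uncertain for the same reason as that of Snhg14, since reads of the gene on the other strand may be counted with it. Malat1, an abundant RNA of nuclear speckles, had 160.1, 194, 243 and 229 CPM in the high share libraries and 51.3, 34.1, 105 and 94.9 CPM in the low share libraries, log2 difference 1.53 (SE 0.33), adjusted p = 0.0126. For Malat1 the classes also did not overlap, with male KO 1 the highest of the low share libraries. Among 25 genes of RNA splicing and decay 10 were called higher (40.0%) and 3 lower (12%, beside 6.69% of all genes). The splicing kinase Clk1 had 176, 251, 195 and 208 CPM in the high share libraries and 71.6, 47.8, 40.6 and 56.8 CPM in the low share libraries, log2 difference 1.94 (SE 0.20), adjusted p = 0.00106, and its relative Clk4 rose by 1.48 (SE 0.16, adjusted p = 0.00118) on the log2 scale.

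Marker lists of the tissues and cells of the spine mostly held members of either sign, and their counts stand beside 12.6% of all genes called higher and 6.69% called lower. In bulk tissue, fewer cells of a type and less RNA per cell cannot be told apart. In the tendon and annulus list 6 of 17 genes were called higher, 8 had a negative difference and the median was 0.02. The 4 members of smallest p are all small leucine-rich proteoglycans of the matrix. Asporin (Aspn) had 1761, 1884, 1528 and 1471 CPM in the high share libraries and 405, 309.5, 452 and 463 CPM in the low share libraries, log2 difference 2.03 (SE 0.20), adjusted p = 0.00106. Lumican (Lum) had 1227, 1315, 1392 and 896 CPM in the high share libraries and 412, 226, 385 and 430.0 CPM in the low share libraries, log2 difference 1.73 (SE 0.25), adjusted p = 0.00201. Decorin (Dcn) and keratocan (Kera) rose by 1.21 (SE 0.24, adjusted p = 0.00943) and 1.98 (SE 0.41, adjusted p = 0.0114). These matrix genes were called in every fit that leaves out 1 library. The median GC content of the 6 called tendon and annulus genes was 42.4% and that of the 11 others 53.7%. With GC and length trends removed, Lum was the 1 tendon and annulus gene called. In the cartilage list 1 of 26 genes was called higher, epiphycan (Epyc), another member of that family, with 431, 407, 430.2 and 479.8 CPM in the high share libraries and 209, 71.5, 126 and 145 CPM in the low share libraries, log2 difference 1.66 (SE 0.28), adjusted p = 0.00441. The median of the cartilage list was -0.02, with 14 of 26 negative. In the bone list of 19 genes Omd, bone sialoprotein (Ibsp) and osteopontin (Spp1) were called higher and alkaline phosphatase (Alpl) lower, with a median of -0.16 and 11 negative. Spp1 and Alpl did not keep their calls without male WT 1, and with sex and genotype as terms only Omd and Ibsp were called. With GC and length trends removed, none of the 26 cartilage genes and none of the 19 bone genes was called. In that fit the log2 difference of Omd was 0.80 (adjusted p = 0.157).

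Muscle markers did not move as one with the mitochondrial share. Of 25 fast skeletal muscle genes 2 were called higher, the myosin light chains Myl1 and Mylpf, with a list median of 0.08. Mylpf was not called without male WT 1 (adjusted p = 0.0608). Myl1, which kept its call without any one library, had 7719, 5271, 8692 and 8219 CPM in the high share libraries and 3073, 3795, 3516 and 3528 CPM in the low share libraries, log2 difference 1.10 (SE 0.23), adjusted p = 0.0114. Of 21 slow and cardiac muscle genes 1 was called, Myoz2, and not without male WT 1 (adjusted p = 0.0655). The summed level of the fast list was 23367 to 60640.1 CPM in the high share libraries and 26246 to 46444 CPM in the low share libraries, with overlap. Its lowest value, in male WT 2, belonged to the library with the highest mitochondrial share. Brown fat and adipocyte lists gave medians of -0.54 and -1.13. Of the brown fat genes only S100b, which other cells also express, was called, and none of the 19 adipocyte genes was. The summed adipocyte level was 1284 to 8345 CPM in the high share libraries and 975 to 12248 CPM in the low share libraries, and the highest value was that of female WT 2. Without it the medians were 0.33 for the brown fat list and 0.36 for the adipocyte list.

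Among cells of the nervous system, 2 of 13 astrocyte and radial glia genes were called higher (Fabp7 and S100b, median 0.34; S100b not without male WT 1, adjusted p = 0.0573). The list's summed level was 2585 to 5035 CPM in the high share libraries and 1509 to 2151 CPM in the low share libraries, and Fabp7 was a large part of it. Of 23 neuron genes 1 was called, the tachykinin precursor Tac1, and of 15 Schwann cell and oligodendrocyte genes 1, the receptor Erbb3, which was lower. Neither was called without female WT 1 (adjusted p = 0.0936 and 0.096). Macrophage genes had 3 of 13 called higher: Aif1, Ms4a7 and the mannose receptor Mrc1, which had 115, 107, 138 and 96.4 CPM in the high share libraries and 65.4, 66.5, 78.6 and 59.4 CPM in the low share libraries, log2 difference 0.76 (SE 0.15), adjusted p = 0.00966. All 3 were called without any one library and with sex and genotype as terms. Of 14 neutrophil genes 1 was called, S100a8, which kept its call in 3 of the 8 fits that leave out 1 library.

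Of 12 endothelial genes 5 were called lower and none higher, where 6.69% of all genes were called lower, and the median was -0.64. Tie1, a receptor of vessel walls, had 37.5, 21.1, 43.9 and 34.5 CPM in the high share libraries and 65.9, 89.8, 84.1 and 45.7 CPM in the low share libraries, log2 difference -1.06 (SE 0.26), adjusted p = 0.0206, and was not called without male KO 1 (adjusted p = 0.0558). None of the 5 calls held in all 8 fits that leave out 1 library, and with sex and genotype as terms Tie1 was the 1 endothelial gene called lower. Within the KO libraries alone 1 of the 12 endothelial genes was called higher and none lower. With GC and length trends removed none was called. Von Willebrand factor (Vwf), counted here with platelet genes but also made by endothelium, had 17.2, 11.3, 14.4 and 19.1 CPM in the high share libraries and 24.1, 28.4, 49.7 and 28.7 CPM in the low share libraries, log2 difference -1.08 (SE 0.25), adjusted p = 0.0163. It kept its call in all 8 of those fits. The median GC content of the 5 called endothelial genes was 58.2% and that of the 7 others 50.8%. Among 20 cell cycle genes 3 were called higher (15%, beside 12.6% of all genes) and 4 lower (20%, beside 6.69%). With sex and genotype as terms 1 cell cycle gene was called higher and none lower. Within the KO libraries alone, and with GC and length trends removed, none was called. The mitotic activator Cdc20 fell by 0.88 on the log2 scale (SE 0.19, adjusted p = 0.0133), and the replication clamp Pcna rose by 0.53 (SE 0.14, adjusted p = 0.027), a call it kept in 2 of the 8 fits.

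Genes of organs next to the spine varied by library rather than by class. The hepatocyte list, with albumin (Alb) at 927, 729, 67.9 and 46.0 CPM in the high share libraries and 81.1, 21.4, 657 and 75.1 CPM in the low share libraries, gave no call. The pancreatic enzyme Cpa1 had 203.8 CPM in female WT 1 and 0.854 to 2.46 CPM in the other 7 libraries. It was called lower in the high class, as was Pnliprp1, and neither was called without female WT 1 (adjusted p = 0.322 and 0.158) or with sex and genotype as terms. None of the Hox genes of any position group was called, and the list medians were 0.31 for paralogs 1 to 5, 0.31 for 6 to 9 and -0.10 for 10 to 13.

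Calls in the stress and signalling lists stand beside 12.6% of all genes called higher and 6.69% called lower. None of 22 immediate early genes and none of 18 glucocorticoid and FoxO response genes was called, and the medians were -0.12 and 0.33. Hypoxia and glycolysis gave 1 call of higher among 25 (Bnip3, 4%). Heat shock proteins gave 2 among 14 (Hsp90aa1 and Dnaja1, 14.3%) and interferon-stimulated genes 2 among 15 (Ifit1 and Ifit2, 13.3%). Both of these shares were close to that of all genes. All 5 calls were lost without female WT 1. In the p53 list 4 of 14 genes were called higher (28.6%, beside 12.6% of all genes), 2 with sex and genotype as terms, and Ccng1, a p53 target, had 495, 692, 519.9 and 486 CPM in the high share libraries and 224, 281, 203 and 312 CPM in the low share libraries, log2 difference 1.10 (SE 0.20), adjusted p = 0.00611.

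Depth overlapped between the classes. Nuclear counts per library ranged from 37716032 to 52300052 in the high class and from 32624103 to 64496650 in the low class (exact permutation p = 0.771). The 50 most counted nuclear genes held 15.3% to 19.8% and 15.4% to 19.3% of them (exact permutation p = 0.4). Genes without a symbol held 0.458% to 1.63% and 0.365% to 1.49% of all counts. Adjusted over the 5 library measures, the p-values of these 3 were 0.667 or higher. Pax1 itself, next to the deleted region, had 22.6, 19.1, 21.9 and 34.5 CPM in the high share libraries and 31.1, 20.6, 32.5 and 22.2 CPM in the low share libraries and was not called, with a difference of -0.12 (adjusted p = 0.737), and no gene in the table measures the enhancer itself. Xist was at 330 to 820 CPM in the 4 female libraries and at most 1.86 CPM in the male ones. The Y-linked Ddx3y was at 80.2 to 264 CPM in males and at most 0.159 CPM in 3 female libraries, but at 1.97 CPM in female KO 1.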

How the data were processed

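Whole-spine RNA of 8 libraries was sequenced, and the authors deposited raw read counts per gene in 1 table keyed by Entrez gene identifiers. Per the submitters' processing notes the tools were FastQC, MultiQC, HISAT2 and featureCounts with the mm10 genome; the annotation, strand setting and treatment of reads that map to several places are not stated there. Identifiers were named from RefSeq (25275 of 27179) and GENCODE (17), and 1887 without a symbol were kept in the tests. Library totals ran from 35181518 to 67575728 counts.

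The classes follow the 10% line on the mitochondrial mRNA share. The members, lists and several alternatives were chosen with earlier results of these data known. Nuclear genes were filtered with filterByExpr (minimum count 10), scaled by TMM and compared with edgeR 4.0.16 in R 4.3.3 (quasi-likelihood test, 6 residual degrees of freedom), with Benjamini-Hochberg adjustment over 17364 genes and a threshold of 0.05. The standard error is the log2 difference divided by the square root of F. GC and length trends were removed as per-library splines with 5 degrees of freedom. Each gene had 1 transcript model, the longest with a RefSeq match, which need not be the one expressed. Library measures were compared with exact permutation tests in scipy 1.17.1. The fit was tested on simulated data.

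Named genes were the 13 mitochondrial mRNAs; the 15 rises and 15 falls of largest size among called autosomal genes with a proper symbol, a mean of at least 1 CPM and no overlap; up to 4 members of smallest p in each list; and Pax1, Xist and Y-linked genes. Genes outside it that are named (Cox8a and called list members beyond 4) were chosen after their values were seen, and 1 gene that the rule selected is not reported here. Alternatives were DESeq2 1.42.0, limma 3.58.1 voom, other scalings and filters, sex, genotype or replicate terms, the share as a continuous term, KO libraries only, composition trends removed, and each library left out.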

Additional observations from a re-analysis of the deposited data

Results flagged for a closer look

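Among the 30 genes with the largest rises and falls and other single values checked, 72 groups of 4 libraries were examined for 1 library lying far from its class, and 6 held one. Chance gives about 1 in 20 such groups. Snhg14, the imprinted host transcript of small nucleolar RNAs, was at 121 CPM in male WT 2, far above the other high share libraries. Ltbp4, a latent TGF-beta binding protein, was at 28.0 CPM in male WT 2, below the other high share libraries. Osteomodulin (Omd) was at 269.6 CPM in male KO 1, above the other low share libraries. Notch3 was at 63.3 CPM in female KO 2, below the other low share libraries. In female WT 1 both Mir99ahg, at 5.46 CPM, and the processed copy Rps15a-ps5, at 2.41 CPM, were above the other low share libraries.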

How the results depend on the processing

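The main counts were 2184 genes higher and 1162 lower. Both stayed within 1.5 times of this with DESeq2 size factors in edgeR, with mitochondrial counts kept in the library size, without the filter, with a minimum of 5 CPM, with limma voom, with the share as a continuous term and with the length trend removed. DESeq2's own test called 2621 higher and 2000 lower. Fewer were called with sex and genotype as terms (1391 and 395), with sex alone (1087 and 213), in KO libraries only (929 and 106), with the GC trend removed (368 and 311) and with GC and length trends removed (138 and 45). Leaving out 1 library gave 1315 to 2144 higher and 249 to 1296 lower, with both lowest counts without female WT 1. Correlations of same-numbered libraries, taken on deviations from the group means, ran from -0.57 to 0.19. With 2 libraries in a group both replicate numbers give the same correlations, and some pairs set a high against a low share library. This check therefore cannot decide whether the replicate number pairs the libraries. With a replicate block 1969 genes were called higher and 1023 lower.

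The GC trend difference between classes was -0.92 to -0.74 when 1 library was left out, where 7 libraries cannot give a p below 0.0571.

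Some single genes changed sign. In KO libraries only, Cox8b stood at 0.97, Alb at -2.67, Cpa1 at 0.11 and Scgb3a2 at -2.41. With GC and length trends removed, Mterf3 stood at -0.0093, Vdac3 at -0.029, H2bc4 at -0.021 and Cd24a at -0.0050, and with the GC trend alone removed Dnaja1 stood at -0.058. The cause was not tested.

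List medians moved as follows. In KO libraries only they were 0.42 for mitochondrial ribosomal proteins, 0.94 for cytosolic ones, -0.30 for neurons, -0.11 for astrocytes, -0.27 for endothelium, -3.00 for hepatocytes, 0.20 for pancreas, -0.56 for lung, -3.18 for adrenal genes and 0.12 for the cell cycle, and the share of counts without a symbol differed by 0.512 points. With GC and length trends removed they were -0.43 for complex IV, 0.0074 for mitochondrial genome maintenance, 1.22 for nuclear non-coding RNAs, 0.29 for small nucleolar RNA hosts, -0.060 for splicing and decay and -0.49 for intestine. With the GC trend alone removed splicing and decay stood at -0.036 and intestine at -0.52, and with the length trend removed the hosts stood at 0.42 and intestine at -0.55. Fits with trends removed cover only genes with transcript data. These were 6 of the 10 nuclear non-coding RNAs, 3 of the 13 hosts and 3 of the 4 intestine genes. For these lists the medians are therefore not over the same genes as in the main fit. With a minimum of 5 CPM B cells stood at -0.36 and lung at 0.040. Lung stood at 0.48 with sex and genotype, 0.89 with sex and 1.05 with voom.

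With 1 library left out, medians ran from -0.78 to 1.06 for muscle isoforms of complex IV, from -0.25 to 0.47 for glucocorticoid and FoxO genes, from -0.20 to 0.14 for platelet genes, from -3.09 to -0.25 for pancreas, from 0.22 to 2.19 for lung, from -3.13 to 0.34 for adrenal genes and from 0.10 to 0.99 for interferon-stimulated genes. The library behind the shift was female WT 2 for complex IV, male KO 2 for glucocorticoid and platelet genes, female WT 1 for pancreas, male WT 1 or 2 for lung, male WT 2 for adrenal and male KO 1 for interferon genes.

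Limits: 4 libraries a class, a class line set on measured values, no RNA integrity value in the sources used here, and sex and class joined in WT. The SE of a typical gene was 0.21 on the log2 scale. In simulated data with known changes, 63.5% of 2-fold changes and 99.0% of 4-fold changes were called in the right direction. A gene that was not called may therefore still differ between the classes, also by 2-fold.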

Other observations

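Gene families that no list covered also differed between the classes, and these groups were chosen after the values were seen. The counts stand beside 12.6% of all tested genes called higher and 6.69% called lower. Of 396 tested genes with zinc finger symbols (Zfp, Zkscan and Zscan, mostly DNA-binding repressors), 142 were called higher (35.9%) in the high share libraries. In the same family 23 were called lower (5.81%, close to the share of all genes). The family had a median log2 difference of 0.30 and a median transcript GC content of 45.3%, beside 50.4% for all tested genes. Of 846 annotated long non-coding RNAs 175 were called higher (20.7%) and 1 lower (0.118%), with a median of 0.45. Of 116 pseudogenes 36 were called higher (31.0%) and 1 lower (0.862%), with a median of 0.56, although their reads can belong to the parent gene. Protein-coding genes had 1856 of 15762 called higher (11.8%) and 1154 lower (7.32%), with a median of -0.07.

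Of 10 tested keratinocyte genes 2 were called higher (20%, beside 12.6% of all genes). With sex and genotype as terms 1 was called higher, and with GC and length trends removed 0. The summed level of the list was 39.0 to 54.9 CPM in the high share libraries and 31.2 to 42.2 CPM in the low share libraries, with overlap. The cornified layer gene Krtdap rose by 2.02 on the log2 scale, a call it kept without any one library. Krt10, the other one, was not called without male WT 1 (adjusted p = 0.101).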
